A study of Homo sapiens with 183 samples.

Results

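The genes described here were KRT4, KRT5, KRT6A, KRT6B, KRT6C, KRT13, KRT14, KRT15, KRT16 and KRT17, 10 of the keratins found in stratified epithelia such as skin, mouth and oesophagus. They were taken by name from the 19875 gene names that each of 8 expression tables held, and all 10 were present in every table. The study measured mRNA in human cancer cell lines to ask how the transcription factor KLF5 and the paired ATPases RUVBL1 and RUVBL2 act on cell identity in pancreatic ductal adenocarcinoma. Its 183 libraries fell into 59 groups of 1 to 6 libraries from 9 lines, 5 of them pancreatic (AsPC-1, SUIT-2, CFPAC-1, T3M-4 and BxPC-3) and 4 of other origin (T84, colorectal cancer; A375, melanoma; H1048, small cell lung cancer of the tuft cell-like P subtype; RH30, alveolar rhabdomyosarcoma).

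In the pancreatic lines Cas9-expressing cell pools were infected with lentiviral guide RNAs and collected at day 5. The guides were sgKLF5, sgRUVBL1, sgRUVBL2, sgCDK1 or sgRpa3 (both against genes needed for cell division), sgCHD4 or sgSERPINB5, and the control was sgRosa, a guide against none of these genes. All these groups carried Cas9 and were pools, not clones, and which guide sequence a replicate received is not given in the sources used here. In the inhibitor groups, AsPC-1 and T3M-4 cells with a vector for RUVBL2 dF109, one for RUVBL1 A62T or an empty one, and the parental cells of the 4 other lines, received CB-6644, an inhibitor of the RUVBL1/2 ATPase, or DMSO for 24 h. The number that precedes the point in a replicate label is called the experiment here, so that sgRosa and knockout libraries of the same line and experiment were compared. The comparisons of a line and experiment share their sgRosa libraries and are therefore not independent of each other. Each construct in AsPC-1 and T3M-4 had a single DMSO library, and the 3 of a line were therefore pooled as its control.

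Keratins form the intermediate filaments of epithelial cells as obligate pairs of a type II protein (here KRT4, KRT5 and the KRT6 genes) and a type I protein (KRT13 to KRT17). KRT5 with KRT14 or KRT15 marks the basal layer of stratified epithelia, KRT4 with KRT13 the upper layers of moist, non-cornified mucosa, and KRT6 with KRT16 or KRT17 activated and appendage keratinocytes. In pancreatic cancer, KRT5, KRT6A, KRT14 and KRT17 are in common use as markers of the basal-like subtype, in which ductal cells take on squamous features.

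In hg38 (GENCODE 44) all 10 genes lie on the minus strand in 2 clusters. On chromosome 12, where each gene has 9 exons, they are KRT6B at 52446651-52452146, KRT6C at 52468516-52473805, KRT6A at 52487176-52493257, KRT5 at 52514575-52520530 and KRT4 at 52806549-52814116, within 367.5 kb. On chromosome 17, where each has 8 exons, they are KRT13 at 41500981-41505705, KRT15 at 41513745-41522529, KRT14 at 41582279-41586895, KRT16 at 41609778-41615899 and KRT17 at 41619442-41624842, within 123.9 kb. Close paralogs share read-length sequence, which decides how far a value belongs to one gene. Of all 76-base windows of its transcript (the read length of these libraries), KRT6C shared 42.1% with another gene, KRT6B 34.1% and KRT6A 25.9%, against 9.93% in KRT14, 9.48% in KRT16, 4.3% in KRT17, 2.73% in KRT5 and 0% in KRT4, KRT13 and KRT15. The KRT6A and KRT6B coding sequences, 1695 bases each, were 97.5% identical (43 bases differed), KRT6A and KRT6C 97.9% (35 bases) and KRT6B and KRT6C 98.5% (26 bases). Low values of KRT6B and KRT6C beside a high KRT6A are therefore uncertain. The window of one read length that separates the 3 KRT6 genes best, coding bases 670 to 745, is shown 5′ to 3′ with the 10 positions at which they are not all the same in capitals.
KRT6A: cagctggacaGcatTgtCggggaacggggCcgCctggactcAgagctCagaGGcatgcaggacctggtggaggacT
KRT6B: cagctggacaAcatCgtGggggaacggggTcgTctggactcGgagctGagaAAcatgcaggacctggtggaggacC
KRT6C: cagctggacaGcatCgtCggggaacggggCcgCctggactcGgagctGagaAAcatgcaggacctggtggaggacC

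Values are TPM, a transcript's length-corrected share of all transcripts in its library, so that genes can be set beside each other. TPM keeps no read depth, and the depth of a library is unknown. Libraries held 11292 to 14024 genes at 1 TPM or more. The targeted gene's own mRNA fell in all 5 RUVBL1 and all 4 RUVBL2 knockouts (log2 fold changes -1.87 to -1.14 and -1.76 to -1.24), whereas KLF5 mRNA differed from sgRosa by -0.41 to 0.78 over 8 comparisons and CHD4 mRNA by 0.28. A Cas9 cut need not lower the transcript, so these levels do not check the KLF5 and CHD4 labels. Line markers were high where the labels placed them: MYOD1 736 TPM in RH30, CDX2 90.5 in T84, POU2F3 476 in H1048 (with TRPM5 at 0.077), and SOX10 235 in A375 (with PMEL at 0.914 and MLANA at 1.23). HNF4A, a classical pancreatic marker, stood at 43.7 to 70.2 in AsPC-1, 17.6 in SUIT-2 and 10.8 in CFPAC-1, and at no more than 0.386 in T3M-4 and BxPC-3.

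Several libraries stood apart before any comparison. In AsPC-1 sgKLF5 experiment 1, replicate 6 held KRT5 at 60.5, KRT6A at 37.1, KRT14 at 44.9 and KRT17 at 59.7 TPM, against at most 1.79 TPM in the other 5. It held 18 genes at 10 TPM or more that were over 10 times the higher of 1 TPM and any of those 5, among them TIMP3 (66.2 TPM) and MGP (40.6 TPM). In T3M-4 sgKLF5 experiment 1, replicate 2 was low in KRT5 (30.1 against 69.4 to 71.0 TPM) and KRT6A (192 against 736 to 782). In CFPAC-1 sgRosa, replicate 2 was low in KRT13 (4.75 against 14.0 to 17.2), KRT15 (17.2 against 33.5 to 40.6) and KRT17 (9.48 against 23.4 to 28.2). Values without them are given below where a count of called members depends on them.

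At baseline, the lines differed in which of these keratins they expressed. T3M-4 and BxPC-3 held KRT5, KRT6A, KRT13 and KRT17 at 255 TPM or more in every control library, CFPAC-1 a low amount of 6 of them, AsPC-1 mostly KRT15 and KRT16, SUIT-2 KRT15 and a little KRT13, H1048 and T84 mostly KRT17 and KRT15, A375 KRT14 and KRT15, and RH30 a trace of KRT17. These levels stand side by side without a test. TPM is scaled within each library, and the pancreatic lines came in separate tables.

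**Figure D1:**
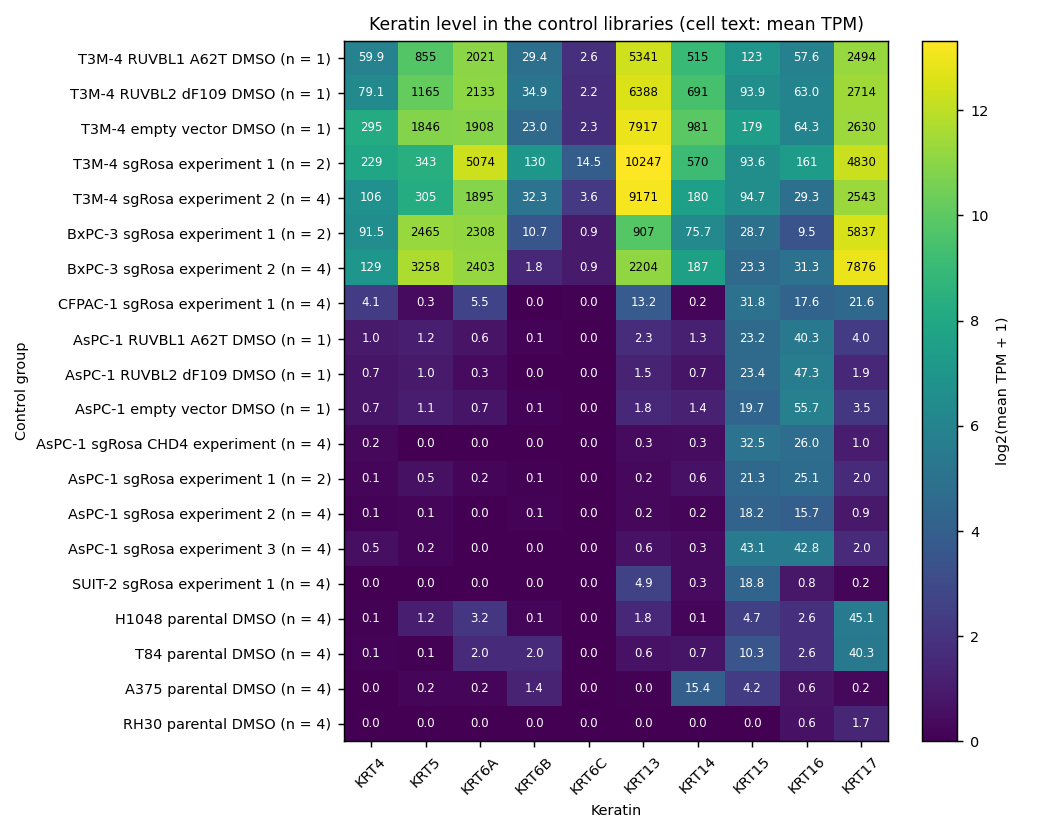
Control levels of the 10 keratins. Each row is a control group (sgRosa or DMSO, with its number of libraries) and each column a gene; the colour is log2 of the mean TPM + 1 and the number in a cell is the mean TPM. The rows of T3M-4 and BxPC-3 are the brightest, with KRT5, KRT6A, KRT13 and KRT17 at 255 TPM or more in every library, and KRT15 is above 3 TPM in every line but RH30.

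Of the mucosal pair, KRT13 was the most abundant member in T3M-4, at 5341 TPM in the lowest control library and 10620 in the highest. BxPC-3 followed at 896 to 2428 TPM, CFPAC-1 at 4.75 to 17.2, SUIT-2 at 2.2 to 7.24 and H1048 at 1.46 to 2.07. AsPC-1 reached 2.27 TPM. The ranges of CFPAC-1 and SUIT-2 overlapped, and that of AsPC-1 overlapped with those of SUIT-2 and H1048. KRT4 ran from 59.9 to 295 TPM in T3M-4 and from 88.7 to 158 in BxPC-3, which overlapped, and from 1.37 to 6.17 in CFPAC-1, and was under 1 TPM in each library of the other 6 lines.

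Of the basal genes, KRT5 was highest in BxPC-3, at 2457 to 3436 TPM, above the 255 to 1846 TPM of T3M-4, with no other line over 1.28 TPM. KRT14 ran from 147 to 981 TPM in T3M-4 and from 74.4 to 203 in BxPC-3, ranges that overlapped, and the only other line above 1.36 TPM was A375 at 13.3 to 17.1. KRT15 was the member found most widely: 83.7 to 179 TPM in T3M-4, 17.2 to 40.6 in CFPAC-1, 21.4 to 29.4 in BxPC-3, 17.3 to 50 in AsPC-1, 14.1 to 22.7 in SUIT-2, 9.57 to 11.1 in T84, 4.34 to 5.44 in H1048 and 3.49 to 4.51 in A375. The ranges of CFPAC-1, BxPC-3, AsPC-1 and SUIT-2 overlapped, and so did those of H1048 and A375.

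Of the activation genes, KRT6A ran from 1445 to 5181 TPM in T3M-4 and from 2182 to 2646 in BxPC-3, so that the lines overlapped, and reached 8.49 TPM in CFPAC-1, 4.03 in H1048 and 2.56 in T84. KRT6B (23.0 to 136 TPM) and KRT6C (2.24 to 16.8 TPM) were clear of the other lines in T3M-4 alone. KRT16 did not follow KRT6A, with 23.6 to 166 TPM in T3M-4 but also 13.5 to 55.7 in AsPC-1, 7.58 to 22.2 in CFPAC-1 and 8.51 to 43.7 in BxPC-3, which overlapped. KRT17 ran from 5832 to 8600 TPM in BxPC-3 and from 2167 to 4983 in T3M-4 without overlap. Next came H1048 (40.5 to 49.8 TPM) and T84 (35.7 to 46.7), which overlapped, then CFPAC-1 (9.48 to 28.2), and then AsPC-1 (0.654 to 4.02) and RH30 (1.56 to 1.92).

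The means of the 9 lines rest on values scaled within each library, and T3M-4 and BxPC-3 lie far from the rest. Across these means KRT4 and KRT13 had a Pearson correlation of log2(TPM + 1) of 0.982. KRT5 and KRT6A had one of 0.979, whereas KRT14 and KRT15 had the lowest of any pair at 0.554. Outside the keratin family, the genes most like KRT5 over these 9 lines among 12238 genes were TP63 (0.997), the master regulator of stratified epithelia, at 102 TPM in BxPC-3, 79.9 in T3M-4 and at most 1.29 elsewhere, then SPRR2E (0.996), HCLS1 (0.993), CAPNS2 (0.992) and SPRR2F (0.992). Those most like KRT17 were LCP1 (0.959), HES2 (0.959), SPRR2A (0.950), ANXA8 (0.943) and IGFL1 (0.942). SPRR2 genes encode small proline-rich proteins of the cornified envelope.

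KLF5 knockout lowered these keratins in the lines that expressed them most. Over the 8 comparisons with sgRosa, 40 of 56 tested values fell, 5 rose and 11 did not pass the test. Per comparison, 1.00% (SUIT-2) to 13.6% (BxPC-3 experiment 2) of all genes fell and 2.94% (SUIT-2) to 23.4% (T3M-4 experiment 2) rose. The 56 values hold T3M-4, BxPC-3 and AsPC-1 in 2 experiments each, and KRT5, KRT6A and KRT14 of AsPC-1 experiment 1 were testable through 1 library alone. In T3M-4 all 10 fell in experiment 2 and 9 of 10 in experiment 1; in BxPC-3 7 of 10 fell and 1 rose in experiment 2, and 8 of 9 fell in experiment 1. In CFPAC-1 5 of 6 fell and in SUIT-2 1 of 2. In AsPC-1 limma called 0 lower (0 at an unadjusted p under 0.05), and KRT15 and KRT16 rose in both experiments. Here and below a gene was tested where its mean over the fitted libraries was at least 1 TPM, a change is a log2 fold change on the log2(TPM + 1) scale, which understates changes of low genes, and rose or fell means an adjusted p under 0.05 by limma with the Benjamini-Hochberg method over all genes tested. The study describes biological replicates and independent guides for its main targets. Libraries were not matched to guides here and were fitted as independent of each other, so the p-values do not set apart the spread between guides. If libraries of the same guide are alike, these p-values are too small. In bulk RNA, fewer cells of a type and less RNA per cell cannot be told apart.

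**Figure D2:**
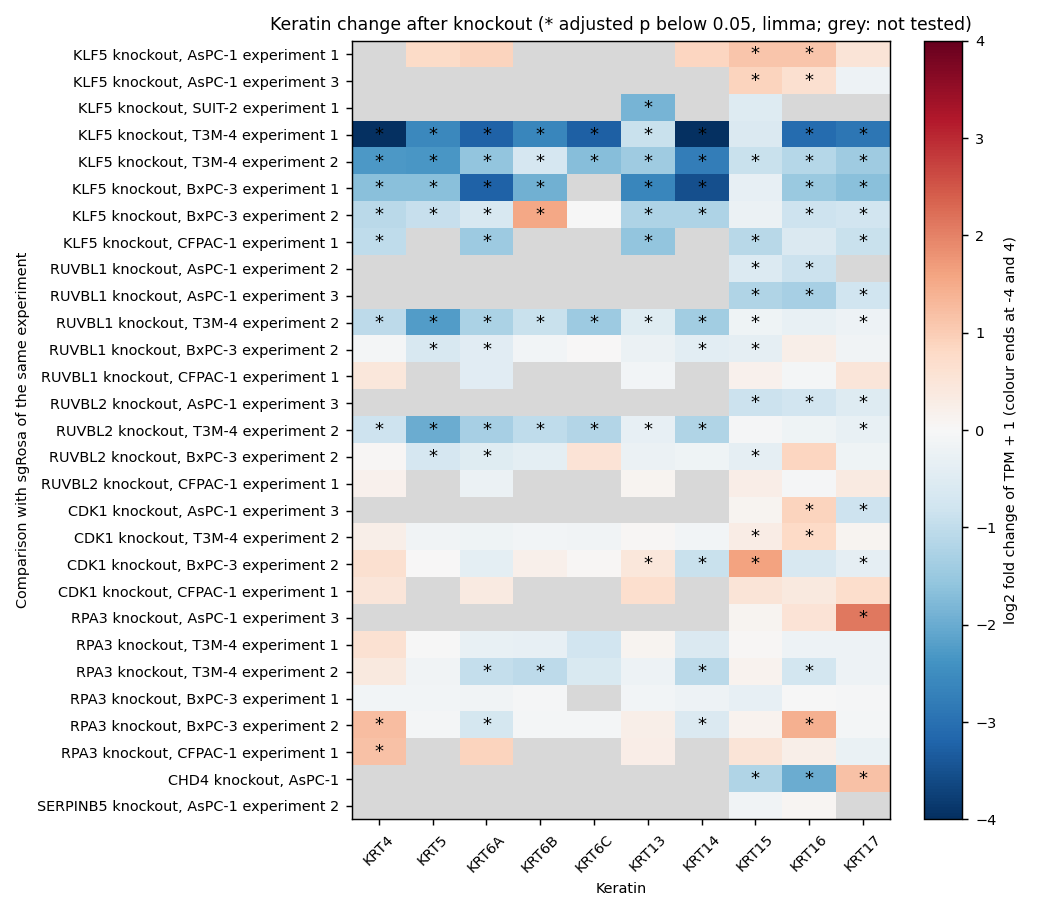
Change of each keratin in each knockout comparison. Rows are comparisons with sgRosa of the same line and experiment, columns are genes, the colour is the log2 fold change of TPM + 1 (the scale ends at -4 and 4), an asterisk is an adjusted p under 0.05 by limma, and grey cells were not tested. In T3M-4 experiment 2 KRT5 is lower by 2.33, 2.25 and 2.00 after KLF5, RUVBL1 and RUVBL2 knockout, and in AsPC-1 KRT15 and KRT16 are higher after KLF5 knockout and lower after RUVBL1 or RUVBL2 knockout.

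In T3M-4 experiment 2, the 4 sgRosa libraries held KRT5 at 325, 337, 305 and 255 TPM and the 4 sgKLF5 libraries at 60.1, 64.9, 57.3 and 56.7. KRT14, the type I partner of KRT5, stood at 201, 218, 147 and 153 TPM against 20.2, 25.7, 28.7 and 26.2. The sgKLF5 libraries of both genes lay far below every control. KRT5 fell by 2.33 (SE 0.12, adjusted p = 1.33e-10) and KRT14 by 2.78 (SE 0.12, adjusted p = 1.64e-11), while KRT15, the other basal partner, fell by 0.89 (SE 0.07). For the mucosal pair, KRT4 was at 123, 112, 98.4 and 90.7 TPM in sgRosa and at 14.5, 23.0, 25.2 and 22.5 in sgKLF5, and KRT13 at 9549, 9801, 8679 and 8656 against 3209, 3518, 3420 and 3509. No library of either group reached into the other, with falls of 2.28 (SE 0.14, adjusted p = 6.77e-10) for KRT4 and 1.42 (SE 0.07, adjusted p = 8.67e-11) for KRT13.

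All 5 activation keratins fell as well. KRT6A stood at 2209, 2321, 1604 and 1445 TPM in sgRosa and at 599, 629, 637 and 600 in sgKLF5, and KRT17 at 2671, 2810, 2525 and 2167 against 865, 965, 1020 and 946. Both groups were separate for both genes. KRT6A fell by 1.59 (SE 0.12), KRT17 by 1.42 (SE 0.08), KRT16 by 1.13 (SE 0.14), KRT6C by 1.69 (SE 0.26) and KRT6B by 0.68 (SE 0.15, adjusted p = 0.00194). The sum of KRT6A, KRT6B and KRT6C, which does not depend on how reads were divided among these 3 genes, fell by 1.57 (SE 0.12, adjusted p = 1.63e-08), and that of KRT14, KRT16 and KRT17 by 1.47 (SE 0.08, adjusted p = 1.12e-10). Of all 13246 genes tested 11.2% fell and 23.4% rose, and the median change was 0.10 over all genes against -1.51 over the 10 keratins. Of the calls over all genes 32.5% were lower, and 55.5% when libraries were rescaled by the median of ratios.

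Experiment 1 in T3M-4 had other control levels, and 7 of 10 members fell further in it. Its 2 sgRosa libraries held KRT16 at 166 and 156 TPM and KRT6B at 136 and 125, above the 23.6 to 33.7 and 24.0 to 41.6 TPM of experiment 2. In the sgKLF5 libraries KRT16 was at 17.1, 23.4, 17.3 and 16.2 TPM and KRT6B at 27.0, 11.1, 23.2 and 25.2, so neither group overlapped its controls. KRT16 fell by 3.07 (SE 0.20, adjusted p = 0.000298) and KRT6B by 2.61 (SE 0.34, adjusted p = 0.00521). The median over the 10 keratins was -2.98 beside -0.22 over 12636 genes, of which 2.46% fell and 3.26% rose (5.72% in all). Without sgKLF5 replicate 2 all 10 fell, and without either sgRosa library 5 fell. The test of the difference between experiments (knockout effect in experiment 1 minus that in experiment 2) passed for 8 of 10, beside 17.4% of all genes: KRT4 (-3.97, SE 0.31), KRT14 (-3.01, SE 0.21), KRT6B and KRT16 (-1.93 each), KRT6A (-1.65), KRT6C (-1.58) and KRT17 (-1.49) fell further in experiment 1, and KRT13 (0.52) fell less. KRT5 did not pass (-0.25, SE 0.31, adjusted p = 0.555).

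In BxPC-3 experiment 2, KRT5 stood at 3224, 3436, 3164 and 3205 TPM in sgRosa and at 1508, 1608, 1886 and 1885 in sgKLF5. KRT13 stood at 1946, 2145, 2428 and 2297 against 829, 856, 1054 and 1012, and KRT17 at 7681, 8600, 7536 and 7688 against 3960, 4218, 5317 and 5121. Each sgKLF5 library was below each control for all 3 genes. KRT13 fell by 1.24 (SE 0.08, adjusted p = 3.29e-09), KRT14 by 1.22 (SE 0.13), KRT4 by 1.08 (SE 0.17), KRT5 by 0.93 (SE 0.08, adjusted p = 5.11e-08), KRT17 by 0.77 (SE 0.08) and KRT6A by 0.66 (SE 0.09). KRT16, whose sgRosa libraries lay at 19.3, 19.2, 42.9 and 43.7 TPM and whose sgKLF5 libraries lay at 11.1, 12.3, 22.8 and 19.7, fell by 0.84 with overlapping groups (SE 0.27, adjusted p = 0.0212). Of 12380 genes 13.6% fell and 21.0% rose, and the median was -0.80 over the keratins beside 0.05 over all genes. Among all calls 39.3% were lower, and 50% after rescaling.

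KRT6B went the other way in that experiment. Its sgRosa libraries held 2.04, 2.05, 1.81 and 1.13 TPM and its sgKLF5 libraries 5.95, 7.74, 7.06 and 7.34, all of the latter above all of the former, an increase of 1.55 (SE 0.23, adjusted p = 4.44e-05). In experiment 1 it started at 11.3 and 10.1 TPM and fell by 1.92 (SE 0.14, adjusted p = 1.24e-05) to 2.34, 1.98, 2.02 and 2.04. The experiments differed by -3.47 (SE 0.32, adjusted p = 7.05e-08). KRT6A stood at 1274 TPM or more in each of these experiment 2 libraries and shared 25.9% of its read-length windows with other genes, so the KRT6B level is uncertain, and the summed KRT6 genes fell by 0.65 in experiment 2 and 3.24 in experiment 1.

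In BxPC-3 experiment 1 every tested member but KRT15 fell. The members' median was -1.69 beside -0.02 over 12398 genes, of which 8.10% fell and 8.09% rose. KRT16 stood at 10.5 and 8.51 TPM in sgRosa and at 2.53, 1.56, 4.40 and 3 in sgKLF5, with no overlap, and fell by 1.49 (SE 0.26, adjusted p = 0.00319). KRT15 was the exception in both experiments, with changes of -0.34 (SE 0.17, adjusted p = 0.235) and -0.23 (SE 0.10, adjusted p = 0.101). The difference between experiments passed for 6 of 9 members beside 16.7% of all genes, all lower in experiment 1: KRT6B (as above), KRT6A (-2.59, SE 0.16), KRT14 (-2.29, SE 0.29), KRT13 (-1.38, SE 0.22), KRT17 (-0.92, SE 0.15) and KRT5 (-0.74, SE 0.11). Markers of mesenchymal cells moved with the falls in this line: of the 2 tested of 3 listed, VIM rose from 49.2 to 202 TPM in experiment 1 and from 35.2 to 57.4 in experiment 2, CDH2 also rose, and ZEB1 was untested at under 1 TPM. In T3M-4, VIM had means of 0.962 and 3.06 TPM in experiment 2. Of 3 basal-like pancreatic markers outside the keratins KLF5 knockout lowered 3 in BxPC-3 experiment 1, 1 in experiment 2, 2 of 2 tested in CFPAC-1 and 0 in T3M-4 experiment 2, and of 4 classical markers 2 of 3 in both BxPC-3 experiments, 2 of 3 in T3M-4 experiment 2 (1 rose) and 3 of 4 in CFPAC-1. Of all genes 8.10% and 13.6% fell in BxPC-3 experiments 1 and 2, 13.0% in CFPAC-1 and 11.2% in T3M-4 experiment 2, where 23.4% rose. Marker counts of the other KLF5 comparisons are not given here. The part of these cell type markers in the keratin changes was not tested.

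In CFPAC-1, where the levels were low, KLF5 knockout lowered KRT13, KRT15, KRT6A, KRT4 and KRT17. The 4 sgRosa libraries held KRT15 at 36.0, 17.2, 40.6 and 33.5 TPM and the 3 sgKLF5 libraries at 14.1, 12.5 and 13.8. KRT13 stood at 16.8, 4.75, 17.2 and 14.0 against 3.19, 3.07 and 3.69, and KRT17 at 28.2, 9.48, 25.3 and 23.4 against 11.3, 9.14 and 10.5. The groups were separate for KRT15 and KRT13 but not for KRT17, because of sgRosa replicate 2. KRT13 fell by 1.59 (SE 0.29, adjusted p = 0.00434), KRT6A by 1.44 (SE 0.31), KRT15 by 1.12 (SE 0.20, adjusted p = 0.00396), KRT4 by 1.03 (SE 0.30) and KRT17 by 0.90 (SE 0.24), and KRT16 differed by -0.58 (SE 0.25, adjusted p = 0.123). Without sgRosa replicate 2 all 6 fell, KRT13 by 1.98, KRT15 by 1.38 and KRT16 by 0.92 (adjusted p = 0.000147). The count was 3 without any one of the sgKLF5 replicates or without sgRosa replicate 1 or 3, and 4 without sgRosa replicate 4. It was 2, KRT13 and KRT15, when only the compared groups were fitted. Of 12748 genes 13.0% fell and 3.26% rose, 79.9% of the calls being lower as deposited and 45% after rescaling.

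SUIT-2 had 2 members to test. KRT13 was at 2.2, 3.58, 6.5 and 7.24 TPM in sgRosa and at 0.114, 0.159, 0.862 and 1.14 in sgKLF5, and fell by 1.87 without overlap (SE 0.35, adjusted p = 0.0184). KRT15 was at 14.1, 19.5, 22.7 and 18.8 against 14.1, 14.1, 10.1 and 12.4 TPM and did not pass (-0.53, SE 0.20, adjusted p = 0.232). The KRT13 call was lost (adjusted p = 0.0502 to 0.0824) without sgKLF5 replicate 1 or 2 or sgRosa replicate 2, 3 or 4. KRT15 passed after rescaling (a fall of 0.76, adjusted p = 0.023) and without sgRosa replicate 1 (adjusted p = 0.0325). Over all 12585 genes 1.00% fell and 2.94% rose (3.94% in all; 25.4% of calls lower, 40.6% after rescaling).

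In AsPC-1, KRT15 and KRT16 rose after KLF5 knockout. In experiment 1 the 2 sgRosa libraries held KRT15 at 20.9 and 21.7 TPM and the 6 sgKLF5 libraries lay between 40.5 and 54.4 (median 48.1). KRT16 was at 23.0 and 27.3 TPM against 46.1 to 66.4 (median 54.5). KRT15 rose by 1.12 (SE 0.12, adjusted p = 8.33e-05) and KRT16 by 1.11 (SE 0.14, adjusted p = 0.000196) with no overlap, and both by 1.09 without replicate 6. In experiment 3 KRT15 went from 39.6, 38.2, 44.7 and 50 TPM to 73.1, 87.9, 92.6 and 68.2 and KRT16 from 33.9, 37.1, 53.3 and 46.8 to 62.6, 74.4, 67.3 and 59.3. Again the groups were separate, with increases of 0.88 (SE 0.16, adjusted p = 0.000312) and 0.63 (SE 0.16, adjusted p = 0.00584). KRT16 was also above every sgRosa library of experiment 3 after CDK1 knockout (mean 79.8 TPM, 0.90, adjusted p = 0.00365). The same held after RPA3 knockout, without a call (61.6 TPM, 0.54, adjusted p = 0.359). The sgKLF5 mean was 65.9 TPM, beside 70.7 over the CDK1 and RPA3 libraries. For KRT15 the CDK1 and RPA3 means were 46.7 and 46.6 TPM, against 80.5 after KLF5 knockout. KRT5, KRT6A and KRT14 were testable in experiment 1 through replicate 6 alone, and these and KRT17 did not pass.

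These were 2 of 6 tested members in experiment 1 and 2 of 3 in experiment 3, beside 17.1% and 15.4% of all genes that rose, 8.81% and 12.3% that fell, and 25.9% and 27.8% called in either direction. In experiment 1 34.0% of calls were lower, and 49.8% after rescaling. No member passed limma's test of the difference between the experiments (0 of 6, and 0 at an unadjusted p under 0.05, beside 4.28% of all genes), and KRT15 had a difference of 0.24 (SE 0.23, adjusted p = 0.732). KRT5, KRT6A and KRT14 counted among the 6 of experiment 1 through replicate 6 alone. With SEs of 1.12, 0.99 and 0.98, and 0.92 for KRT17, this test could hardly have found a difference in them. The sum of KRT14, KRT16 and KRT17, in which KRT16 carried nearly all TPM, rose by 0.60 in experiment 3 (SE 0.16, adjusted p = 0.00676).

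RUVBL1 and RUVBL2 knockouts lowered KRT5 in both lines that expressed it, and unlike KLF5 knockout they also lowered KRT15 and KRT16 in AsPC-1. Over 5 RUVBL1 comparisons 18 of 31 tested values fell and 0 rose by limma (1 at an unadjusted p under 0.05), and over 4 RUVBL2 comparisons 14 of 29 fell and 0 rose (2 unadjusted). These include 6 tested members in CFPAC-1, of which 0 passed in either knockout. Per comparison, 7.67% (BxPC-3) to 37.3% (CFPAC-1) of all genes fell after RUVBL1 knockout and 5.48% (BxPC-3) to 15.2% (T3M-4) after RUVBL2 knockout. In T3M-4 45.9% and 39.3% of all genes rose.

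In T3M-4 experiment 2 the RUVBL1 knockout, with 3 libraries, had KRT5 at 71.6, 47.8 and 73.3 TPM and the RUVBL2 knockout at 62.9, 81.9, 79.4 and 78.5, beside the 255 to 337 of sgRosa. All 7 lay far below the controls, with falls of 2.25 (SE 0.13, adjusted p = 1.29e-09) and 2.00 (SE 0.12, adjusted p = 1.89e-09). KRT14 stood at 68.1, 66.2 and 65.9 TPM and at 76.5, 73.4, 82.0 and 71.4, below the 147 to 218 of sgRosa and above the 20.2 to 28.7 of sgKLF5, falling by 1.4 and 1.22. KRT6A stood at 768, 723 and 815 and at 784, 705, 711 and 785, and fell by 1.27 and 1.32. KRT4 (falls of 1.04 and 0.83), KRT6B (0.90 and 1.01), KRT6C (1.46 and 1.16) and KRT13 (0.50 and 0.32) fell in both knockouts.

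The abundant KRT17 had one of the smallest changes among the called members. It was at 2159, 2204 and 2265 TPM after RUVBL1 knockout, within the 2167 to 2810 of sgRosa apart from 1 library below it, and at 2138, 2057, 2153 and 1949 after RUVBL2 knockout, all below. It fell by 0.20 (SE 0.08, adjusted p = 0.0473) and 0.29 (SE 0.08, adjusted p = 0.00412). KRT15 fell by 0.18 after RUVBL1 knockout (SE 0.07, adjusted p = 0.0405) and differed by -0.06 after RUVBL2 knockout (adjusted p = 0.477), and KRT16 passed in neither (-0.29, adjusted p = 0.109, and -0.16, adjusted p = 0.352). With 9 and 8 of 10 members lower, 14.6% and 15.2% of all genes fell and 45.9% and 39.3% rose (60.5% and 54.5% called in all), so that 24.1% and 27.9% of calls were lower, and 53.1% and 53.4% after rescaling. The members' medians were -0.97 and -0.92 beside 0.25 and 0.19 over all genes.

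**Figure D3:**
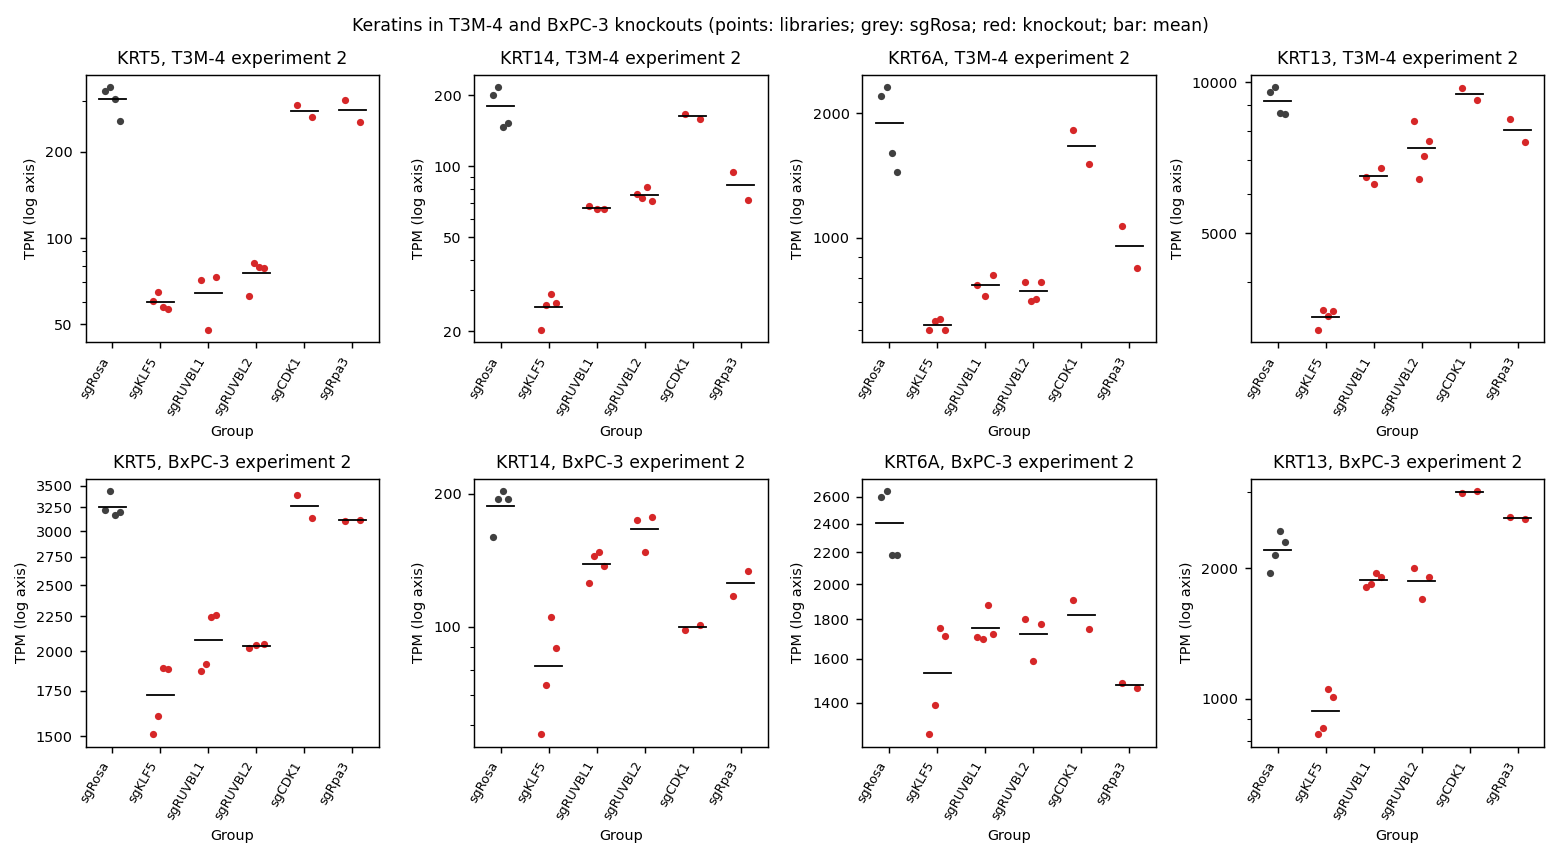
KRT5, KRT14, KRT6A and KRT13 in T3M-4 (top) and BxPC-3 (bottom), experiment 2. Each point is 1 library in TPM on a log axis, by guide, sgRosa in grey and knockouts in red, and the bar is the group mean. In T3M-4 KRT5 lies at 47.8 to 81.9 TPM after RUVBL1 or RUVBL2 knockout and at 56.7 to 64.9 after KLF5 knockout, while KRT14 lies at 65.9 to 82.0 against 20.2 to 28.7 TPM.

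The knockouts were also compared directly, without control libraries. In T3M-4 KRT5 and the KRT6 genes did not pass between RUVBL1 and KLF5 knockout, and 6 members were higher after RUVBL1 knockout. After RUVBL1 knockout KRT5 differed from its level after KLF5 knockout by 0.08 (SE 0.13, adjusted p = 0.656) and KRT6A by 0.32 (SE 0.13, adjusted p = 0.0579). KRT14 was higher than after KLF5 knockout by 1.38 (SE 0.13), KRT4 by 1.24 (SE 0.15), KRT17 by 1.22 (SE 0.08), KRT13 by 0.93 (SE 0.08), KRT16 by 0.84 (SE 0.15) and KRT15 by 0.72 (SE 0.07), 6 of 10 members beside 30.5% of all genes. RUVBL2 against KLF5 gave 7 of 10 higher beside 23.7% of all genes, the 6 above and KRT5 at 0.33 (SE 0.12, adjusted p = 0.0418). Against the mean of the CDK1 and RPA3 knockouts, both genes needed for cell division, KRT5 was lower by 2.2 after KLF5, 2.12 after RUVBL1 and 1.87 after RUVBL2 knockout (SE 0.12 to 0.13, adjusted p = 1.17e-08 or less). In that comparison 9, 7 and 9 of 10 members were lower, beside 15.3%, 14.8% and 16.6% of all genes. KRT6B did not pass after KLF5 knockout (-0.11, adjusted p = 0.657), and RUVBL2's count was 5 without sgRpa3 replicate 1.

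In BxPC-3, KRT5, KRT6A and KRT15 fell after both RUVBL knockouts. After RUVBL1 knockout KRT5 was at 1872, 1917, 2247 and 2260 TPM and after RUVBL2 knockout, with 3 libraries, at 2022, 2040 and 2049, all below the 3164 to 3436 of sgRosa. It fell by 0.66 (SE 0.08, adjusted p = 4.55e-05) and 0.68 (SE 0.08, adjusted p = 0.000445). KRT6A was at 1707, 1695, 1881 and 1722 and at 1801, 1590 and 1777, below the 2182 to 2646 of sgRosa, and fell by 0.45 (SE 0.09, adjusted p = 0.00352) and 0.48 (SE 0.10, adjusted p = 0.00834). KRT15 fell by 0.35 and 0.37 and KRT14 by 0.43 after RUVBL1 knockout alone, a difference between the RUVBL knockouts that was not tested. That made 4 and 3 of 10 members lower beside 7.67% and 5.48% of all genes, with medians of -0.19 and -0.20. The RUVBL2 count was 1 when only the compared groups were fitted and 1 after rescaling, and 56.2% of all its calls were lower, 45.8% after rescaling.

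Against KLF5 knockout in BxPC-3, 6 of 10 members were higher after RUVBL1 knockout and 7 after RUVBL2 knockout, beside 18.8% and 13.6% of all genes. KRT13 was higher by 1.01 (SE 0.08) and 1.00 (SE 0.09), KRT4 by 0.99 and 1.13, KRT16 by 1.07 and 1.70, KRT14 by 0.79 and 1.05, KRT17 by 0.62 and 0.60, and KRT5 by 0.27 and 0.25, and KRT6C by 0.56 after RUVBL2 knockout. KRT6B was lower by 1.67 (SE 0.23) and 1.94 (SE 0.25). Against the CDK1 and RPA3 mean KRT5 was lower by 0.62 after RUVBL1 and 0.64 after RUVBL2 knockout (SE 0.08 each). KRT6A was not (0.09, adjusted p = 0.525, and 0.07, adjusted p = 0.661), and neither was it after KLF5 knockout (-0.11, adjusted p = 0.346). In that comparison 4 members were lower after each RUVBL knockout, beside 9.56% and 12% of all genes, and after KLF5 knockout 7 of 10 beside 19.7%. In the other direction KRT14 was higher by 0.57 (adjusted p = 0.0112) and KRT6C by 0.55 (adjusted p = 0.0457) after RUVBL2 knockout beside 8.64% of all genes, and KRT6B by 1.5 (adjusted p = 3.23e-05) after KLF5 knockout beside 27.1%.

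In AsPC-1, KRT15 and KRT16 fell after RUVBL1 and RUVBL2 knockout. In experiment 3 KRT15 was at 14.1, 14.0, 22.4 and 24.4 TPM after RUVBL1 knockout and at 25.2, 19.9, 24.1 and 24.3 after RUVBL2 knockout, below the 38.2 to 50 of sgRosa. KRT16 was at 12.7, 13.3, 19.0 and 22.0 and at 27.2, 20.1, 28.2 and 23.5, below the 33.9 to 53.3 of sgRosa. None of these groups overlapped its control. KRT15 fell by 1.2 (SE 0.16, adjusted p = 8.41e-06) and 0.85 (SE 0.16, adjusted p = 0.000374) and KRT16 by 1.32 (SE 0.16, adjusted p = 3.14e-06) and 0.75 (SE 0.16, adjusted p = 0.00107), and KRT17, at 2.44 TPM or less, by 0.81 and 0.52. In experiment 2 the RUVBL1 knockout had KRT15 at 11.3, 11.8, 12.9 and 12 TPM against 18.4, 19.4, 17.5 and 17.3, a fall of 0.56 (SE 0.10, adjusted p = 0.000194). KRT16 stood at 8.37, 7.49, 8.28 and 8.67 against 17.4, 16.2, 13.5 and 15.5 and fell by 0.85 (SE 0.09, adjusted p = 1.34e-06).

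**Figure D4:**
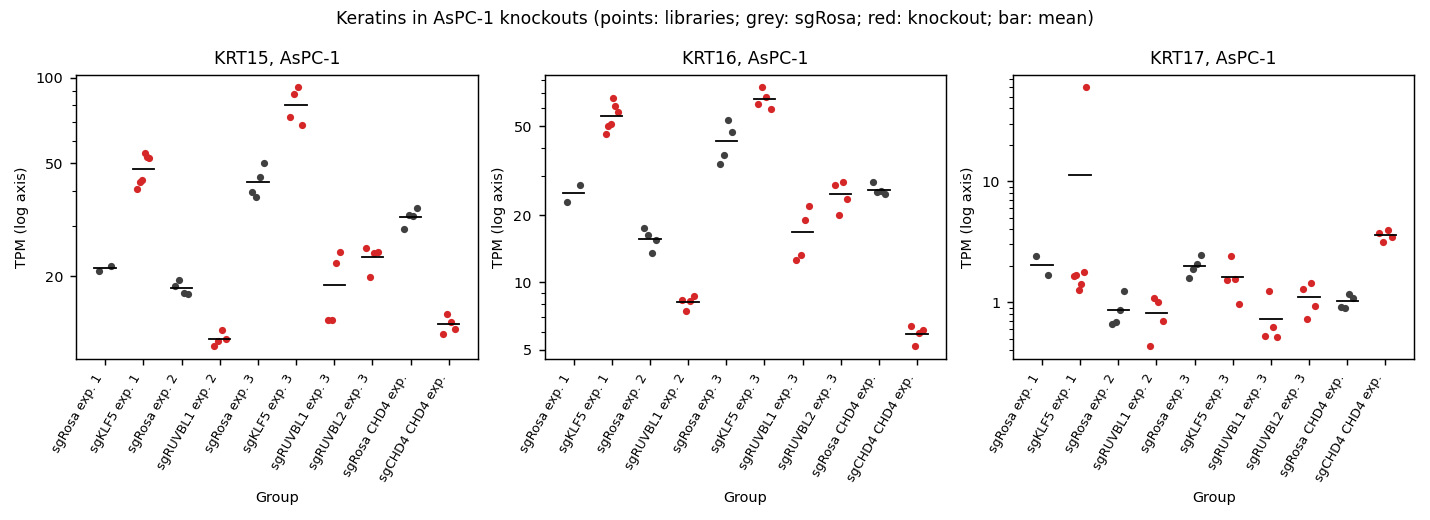
KRT15, KRT16 and KRT17 in AsPC-1. Each point is 1 library in TPM on a log axis, by guide and experiment, sgRosa in grey and knockouts in red, with a bar at the group mean. In experiment 3 the sgKLF5 libraries lie above sgRosa for KRT15 (68.2 to 92.6 against 38.2 to 50 TPM) and the sgRUVBL1 and sgRUVBL2 libraries below it (14.0 to 25.2 TPM).

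So 3 of 3 tested members fell in experiment 3 with each guide target and 2 of 2 in experiment 2, beside 15.2% (RUVBL1), 11% (RUVBL2) and 25.8% (RUVBL1, experiment 2) of all genes that fell (51.9%, 43.2% and 55.8% called in either direction). Of the calls in experiment 3 29.4% and 25.5% were lower, and 53.1% and 53.8% after rescaling. Set directly against KLF5 knockout, KRT15 was lower by 2.08 (SE 0.16, adjusted p = 5.36e-09) after RUVBL1 and by 1.74 (SE 0.16) after RUVBL2 knockout, and KRT16 by 1.95 and 1.38, in 3 and 2 of 3 members beside 19.4% and 17.1% of all genes. Against the CDK1 and RPA3 mean all 3 were lower after either knockout (19.1% and 14.8% of all genes), KRT16 by 2.04 and 1.47. For KRT17 that mean was carried by RPA3, since the sgRpa3 libraries held 12.7 and 11 TPM and the sgCDK1 libraries 0.734 and 0.605, within the 0.513 to 1.23 of sgRUVBL1 and overlapping the 0.725 to 1.45 of sgRUVBL2. The RUVBL1 effect was smaller in experiment 2 than in experiment 3 for KRT15 (difference 0.64, SE 0.20, adjusted p = 0.0269) and KRT17 (0.76, SE 0.23, adjusted p = 0.021), 2 of 3 members beside 18.2% of all genes.

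In CFPAC-1 no tested member passed after either RUVBL knockout. KRT15 was at 35.7, 36.5, 39.0 and 28.1 TPM after RUVBL1 knockout and at 36.0 and 37.2 after RUVBL2 knockout, inside the control range of 17.2 to 40.6, and differed by 0.18 (SE 0.18, adjusted p = 0.436) and 0.26 (SE 0.22, adjusted p = 0.483). By limma 0 of 6 were called in either knockout (1 higher after RUVBL1 and 0 after RUVBL2 knockout at an unadjusted p under 0.05), beside 43.8% of all genes after RUVBL1 and 12.1% after RUVBL2 knockout. Without sgRosa replicate 2, 3 fell after RUVBL1 knockout: KRT6A by 0.83, KRT13 by 0.50 and KRT16 by 0.41. Of the calls over all genes 85.1% and 76.6% were lower, and 46.9% and 53.4% after rescaling. Against KLF5 knockout 5 of 6 members were higher after each, beside 10.3% and 8.51% of all genes, KRT13 by 1.48 (SE 0.29) and 1.70 (SE 0.34). The RUVBL2 count was 3 without any one sgKLF5 library and 2 without either sgRUVBL2 library, and with a minimum of 5 TPM it was 3 for each knockout. Against the CDK1 and RPA3 mean all 6 were lower after KLF5 knockout beside 34.0% of all genes.

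The knockouts of CDK1, which drives mitosis, and RPA3, a subunit of the single-strand DNA binding complex, were compared with sgRosa in the same way. Over 4 CDK1 comparisons 3 of 29 values fell and 5 rose, and over 6 RPA3 comparisons 6 of 48 fell and 4 rose. Per CDK1 comparison 0% (CFPAC-1) to 6.44% (AsPC-1) of all genes fell and 0% (CFPAC-1) to 13.0% (T3M-4) rose. Per RPA3 comparison 0% (T3M-4 experiment 1) to 11.6% (BxPC-3 experiment 2) of all genes fell, and up to 24.6% (T3M-4 experiment 2) were called in all. In BxPC-3 experiment 2 the 2 sgCDK1 libraries held KRT15 at 70.9 and 76.3 TPM, above the 21.4 to 25.6 of sgRosa, an increase of 1.62 (SE 0.13, adjusted p = 6.43e-07). The 2 sgRpa3 libraries held KRT16 at 82.4 and 75.9 TPM against 19.2 to 43.7 and KRT4 at 309 and 287 against 94.7 to 158. All 4 values lay above the controls, with increases of 1.42 (SE 0.33, adjusted p = 0.00531) and 1.24 (SE 0.21, adjusted p = 0.000596). In the same libraries KRT14 was at 98.6 and 101 TPM (sgCDK1) and 117 and 134 (sgRpa3), below the 159 to 203 of sgRosa, and fell by 0.90 and 0.57. RPA3 knockout also lowered KRT6A by 0.70 (SE 0.11, adjusted p = 0.000516). After CDK1 knockout KRT6A differed by -0.39 (SE 0.11, adjusted p = 0.0509). The counts were 2 lower and 2 higher of 10 in each, beside 2.12% of all genes lower and 3.71% higher after CDK1 knockout (5.82% in all) and 11.6% and 9.12% after RPA3 knockout (20.8%). They rest on few libraries. The CDK1 counts were 0 lower without sgCDK1 replicate 1, 1 lower without replicate 2 or sgRosa replicate 1 or 2, and 1 higher without either sgCDK1 library, and the RPA3 counts were 1 lower without either sgRpa3 library and 1 higher without replicate 1. After rescaling the CDK1 knockout gave 1 lower and 1 higher.

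In T3M-4 experiment 2, RPA3 knockout lowered KRT14 by 1.09 (SE 0.15, adjusted p = 0.00011), from 147 to 218 TPM to 94.2 and 72.2. It also lowered KRT6B by 1.04, KRT6A by 0.97 and KRT16 by 0.74, 4 of 10 beside 6.20% of all genes that fell (24.6% called), and the count was 1 when only these groups were fitted. KRT5 was at 303 and 254 TPM after RPA3 and at 291 and 264 after CDK1 knockout, overlapping the controls, with changes of -0.13 each (adjusted p = 0.544 and 0.554). CDK1 knockout raised KRT16 by 0.80 and KRT15 by 0.30, 2 of 10 beside 13.0% of all genes that rose and 3.85% that fell. That count was 0 when only these groups were fitted or without sgCDK1 replicate 1, and 1 without replicate 2 or after rescaling. Among all calls 25.2% (RPA3) and 22.9% (CDK1) were lower, and 59.2% and 58.7% after rescaling. In experiment 1 RPA3 knockout gave by limma 0 of 10 calls beside 0% of all genes in T3M-4 (1 member lower at an unadjusted p under 0.05), and 0 of 9 beside 0.307% in BxPC-3 (0 unadjusted).

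In AsPC-1, KRT17 stood at 12.7 and 11 TPM after RPA3 knockout against 1.58 to 2.44 in sgRosa, and rose by 2.11 (SE 0.21, adjusted p = 1.66e-05), 1 of 3 members beside 0.638% of all genes that rose and 0.0164% that fell (0.654% in all). CDK1 knockout raised KRT16 by 0.90, to 86.3 and 73.3 TPM, and lowered KRT17 by 0.84, beside 10.3% of all genes that rose and 6.44% that fell (16.7% in all). In CFPAC-1, KRT4 rose by 1.16 after RPA3 knockout (SE 0.34, adjusted p = 0.0383), to 11.5 and 7.60 TPM from 1.37 to 6.17, 1 of 6 beside 8.17% of all genes that rose and 3.39% that fell. The call was lost without either sgRpa3 library (adjusted p = 0.295 and 0.124) or sgRosa replicate 1, with only the compared groups fitted (adjusted p = 0.175), after rescaling, with a pseudocount of 0.1 and with no minimum level. Without sgRosa replicate 2 KRT4 rose by 0.83 (adjusted p = 0.0471) and KRT17 fell by 0.62 (adjusted p = 0.00752), against -0.28 with it. Of the calls over all genes after RPA3 knockout 29.3% were lower, 60% after rescaling. CDK1 knockout gave by limma 0 of 6 beside 0% there (2 higher at an unadjusted p under 0.05). CHD4 knockout in AsPC-1 took KRT16 from 28, 25.4, 25.7 and 24.9 TPM to 6.37, 5.18, 5.93 and 6.12, a fall of 1.97 (SE 0.08, adjusted p = 5.96e-09). It took KRT15 from 29.4, 33.0, 32.7 and 34.8 to 12.6, 14.7, 13.9 and 13.0, a fall of 1.2 (SE 0.08), and raised KRT17 by 1.18 (SE 0.11), to 3.15 to 3.99 TPM, so that all 3 were called beside 50% of all genes. After SERPINB5 knockout neither KRT15 (-0.13, SE 0.10, adjusted p = 0.758) nor KRT16 passed (0.09, SE 0.09, adjusted p = 0.808), 0 of 2 by limma and 0 at an unadjusted p under 0.05, beside 0.0343% of all genes (0.0172% lower and 0.0172% higher).

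CB-6644 lowered KRT15 and KRT16 in AsPC-1 cells with the empty vector, and both were higher in CB-6644 with either RUVBL variant than with the empty vector. With the empty vector KRT15 was at 7.80, 7.58 and 8.45 TPM in CB-6644, and the 3 DMSO libraries held 19.7 (empty vector), 23.2 (RUVBL1 A62T) and 23.4 (RUVBL2 dF109). KRT16 was at 15.8, 15.6 and 16.9 against 55.7, 40.3 and 47.3. The groups were far apart, and KRT15 fell by 1.37 (SE 0.08, adjusted p = 8.78e-08) and KRT16 by 1.5 (SE 0.09, adjusted p = 1.44e-07), 2 of 4 members beside 17.2% of all genes that fell. With RUVBL1 A62T KRT15 was at 21.6, 18.9 and 19.0 TPM and with RUVBL2 dF109 at 18.9, 19.1 and 18.4, changes of -0.15 (adjusted p = 0.22) and -0.22 (adjusted p = 0.0555). KRT16 stood at 33.3, 30.3 and 34.0 and at 32.2, 33.8 and 33.0 TPM, below DMSO, and fell by 0.53 and 0.51, 1 of 4 members each beside 1.98% and 4.10% of all genes. With A62T the call was lost against that construct's own DMSO library (-0.30, adjusted p = 0.152) and with only the compared groups fitted (adjusted p = 0.0567). A construct's own DMSO control is 1 library, here and below, so the spread in such a fit comes from the CB-6644 libraries of the line and the lone library is assumed to vary like them.

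Set against the empty vector in CB-6644, KRT15 was higher by 1.22 (SE 0.08, adjusted p = 5.36e-07) with RUVBL1 A62T and by 1.15 (SE 0.08, adjusted p = 8.68e-07) with RUVBL2 dF109, and KRT16 by 0.97 and 0.99 (SE 0.09 each). The 3 libraries of each variant lay above the 3 of the empty vector for both genes. That was 2 of 4 members beside 18.9% and 20.9% of all genes that were higher. Taken relative to each construct's own DMSO library, KRT15 was higher by 0.99 and 0.91 and KRT16 by 1.43 and 1.22. All 4 values passed under that assumption, beside 11% and 16.7% of all genes that were higher, and no spread between DMSO libraries enters them. Of the calls against DMSO over all genes 26.7% were lower with the empty vector, 15.6% with A62T and 12.3% with dF109, and 59.0%, 61.7% and 62.9% after rescaling. Of the calls between constructs 63.1% and 55.7% were lower, and 42.0% and 43.6% after rescaling.

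**Figure D5:**
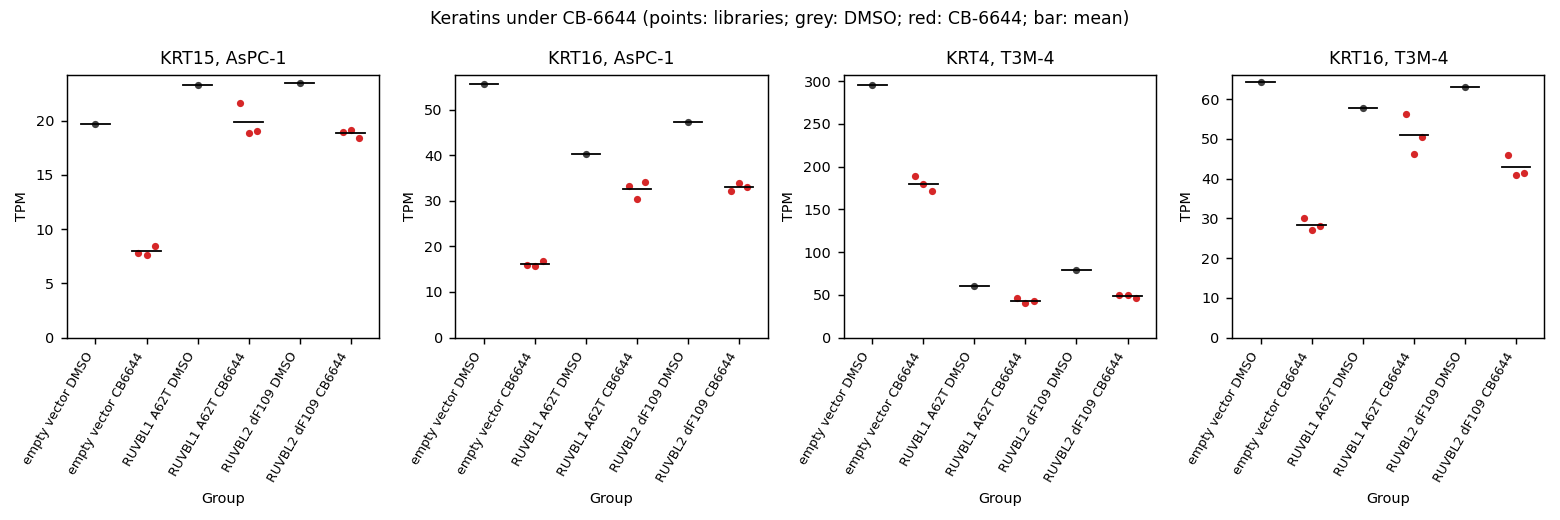
KRT15 and KRT16 in AsPC-1 and KRT4 and KRT16 in T3M-4, in DMSO and CB-6644. Each point is 1 library in TPM on a linear axis from 0, by construct and treatment, DMSO in grey and CB-6644 in red, with a bar at the group mean. In AsPC-1 the empty vector libraries in CB-6644 hold KRT15 at 7.58 to 8.45 TPM against 18.4 to 21.6 with either variant, and in T3M-4 the constructs differ in KRT4 already in DMSO (295, 59.9 and 79.1 TPM).

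In T3M-4 the constructs differed before the inhibitor was added. In DMSO KRT5 was at 1846 TPM with the empty vector, 855 with RUVBL1 A62T and 1165 with RUVBL2 dF109, and KRT4 at 295, 59.9 and 79.1, 1 library each. With the empty vector in CB-6644 KRT5 was at 1784, 1707 and 1628 TPM and KRT4 at 189, 180 and 171. Against the 3 DMSO libraries together neither passed (KRT5 0.48, adjusted p = 0.0843, and KRT4 0.68, adjusted p = 0.233), and against the empty vector's own single DMSO library KRT4 was lower by 0.71 (adjusted p = 0.000584, with that library assumed to vary like the CB-6644 ones) while KRT5 differed by -0.11 (adjusted p = 0.215).

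KRT16 and KRT17 lay closer together in DMSO. KRT16 was at 64.3, 57.6 and 63.0 TPM there, and at 30.0, 27.0 and 28.1 with the empty vector, 56.2, 46.3 and 50.4 with A62T and 46.0, 40.9 and 41.4 with dF109 in CB-6644. KRT17 was at 2630, 2494 and 2714 in DMSO and at 1776, 1610 and 1450 with the empty vector, 2628, 2468 and 2473 with A62T and 2443, 2399 and 2325 with dF109. For both genes the empty vector in CB-6644 was the lowest group. With it KRT16 fell by 1.09 (SE 0.09, adjusted p = 1.57e-05), KRT6B by 0.94, KRT14 by 0.93, KRT17 by 0.70 (SE 0.08, adjusted p = 8.15e-05) and KRT6A by 0.37, 5 of 10 beside 15.2% of all genes, and 8 of 10 against its own DMSO library, beside 9.54%.

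With RUVBL1 A62T, KRT4, KRT5, KRT6A, KRT13, KRT14 and KRT16 were lower than the pooled DMSO, 6 of 10 beside 4.60% of all genes, of which KRT4 alone was lower than that construct's own DMSO library (0.403% of all genes). With RUVBL2 dF109, KRT4, KRT6A, KRT14, KRT15 and KRT16 were lower, 5 of 10 beside 3.34%, and 6 of 10 against its own library, beside 3.81%. In CB-6644 KRT16 was higher than with the empty vector by 0.82 with A62T and 0.57 with dF109, KRT17 by 0.65 and 0.57, and KRT6B by 0.82 and 0.63, and KRT6A by 0.19 with A62T, which became -0.10 after rescaling by the median of ratios. These were 4 and 3 of 10 members, beside 41.4% and 29.8% of all genes that were higher. KRT4 and KRT5 were lower there (KRT4 by 2.05 and 1.87, KRT5 by 1.26 and 0.81), a difference present in DMSO as well: relative to each construct's own DMSO library KRT4 differed by 0.24 and 0.01. On that relative scale KRT16 (0.97) and KRT17 (0.73) were higher with A62T, in 4 of 10 members called beside 1.46% of all genes, and passed in neither case with dF109 (0.60, adjusted p = 0.108, and 0.53, adjusted p = 0.0994). Over all genes 44.4%, 9.21% and 8.87% of the calls against DMSO were lower in the 3 constructs, and 60.5%, 64.4% and 65.0% after rescaling, and 18.2% and 14.0% of those between constructs, 47.6% and 45.3% after rescaling.

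In the lines of other origin CB-6644 lowered 13 of the 14 tested keratin values. In H1048, KRT17 went from 48.4, 49.8, 40.5 and 41.6 TPM in DMSO to 25.2, 21.1, 23.9 and 21.0 and KRT15 from 4.59, 4.53, 5.44 and 4.34 to 0.969, 0.603, 1.72 and 1.74, falls of 0.95 (SE 0.08, adjusted p = 2.61e-07) and 1.37 (SE 0.16, adjusted p = 6.47e-06). In T84 KRT17 went from 46.7, 38.9, 39.9 and 35.7 TPM to 28.8, 27.2, 29.5 and 27.2, a fall of 0.50 (SE 0.07, adjusted p = 1.21e-05), and KRT15 fell by 0.59 and KRT16, at 3.41 TPM or less, by 0.92. In both lines the treated libraries lay below all controls for each tested member. In A375 KRT14 went from 15.6, 17.1, 15.5 and 13.3 TPM to 11.3, 12.5, 9.87 and 11.1, falling by 0.42 (SE 0.08, adjusted p = 0.000506), and KRT15 fell by 0.76 (SE 0.08, adjusted p = 4.15e-06).

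The background in these lines was high. All 5 tested members fell in H1048 and in T84 and all 3 in A375, beside 24.0%, 24.2% and 29.7% of all genes that fell and 77.9%, 71.4% and 81.1% called in either direction. In RH30 the one tested member, KRT17, rose from 1.91, 1.56, 1.56 and 1.92 TPM to 3.02, 2.65, 2.95 and 2.56, by 0.47 (SE 0.09, adjusted p = 0.000266), beside 50.4% of all genes that rose. Of the calls over all genes 30.8% (H1048), 33.9% (T84), 36.6% (A375) and 35.2% (RH30) were lower, and 53.2%, 55.8%, 54.8% and 54.0% after rescaling. Line markers moved as well, with 2 of 2 tested tuft markers lower in H1048 (POU2F3 by 0.65), 2 of 3 intestinal markers lower and 1 higher in T84 (CDX1 lower by 1.11), 2 of 4 melanocytic markers lower and 2 higher in A375 (MITF lower by 1.26) and 3 of 3 myogenic markers lower in RH30 (MYOG by 3.67), and their part in the keratin changes was not tested.

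Keratin filaments are anchored at hemidesmosomes, which tie basal cells to laminin, and at desmosomes, which tie cells to each other. Of 8 tested hemidesmosome genes KLF5 knockout lowered 7 in CFPAC-1 and in BxPC-3 experiment 1, 6 in BxPC-3 experiment 2 (1 rose) and in both AsPC-1 experiments (2 rose in experiment 3), 5 in T3M-4 experiment 2, 3 in T3M-4 experiment 1 and 0 in SUIT-2. ITGB4, an integrin of the hemidesmosome, fell by 1.73 in CFPAC-1 and in AsPC-1 experiment 3 and by 1.32 in BxPC-3 experiment 2, and ITGA6, its partner, by 1.02 in T3M-4 experiment 2. Of all genes, KLF5 knockout lowered 13.0% in CFPAC-1, 8.10% and 13.6% in BxPC-3 experiments 1 and 2, 8.81% and 12.3% in AsPC-1 experiments 1 and 3, 2.46% and 11.2% in T3M-4 experiments 1 and 2, and 1.00% in SUIT-2. The median changes of the list were -1.03 in CFPAC-1 and -0.79 in AsPC-1 experiment 3. RUVBL1 knockout gave 3 lower and 3 higher of 8 in T3M-4, with LAMB3, a chain of laminin-332, higher by 1.12. It gave 4 and 1 in AsPC-1 experiment 2, 2 and 3 in experiment 3, 1 and 1 in BxPC-3 and 2 and 0 in CFPAC-1. The shares of all genes lowered and raised by it were 14.6% and 45.9% in T3M-4, 25.8% and 30% in AsPC-1 experiment 2, 15.2% and 36.6% in experiment 3, 7.67% and 8.29% in BxPC-3 and 37.3% and 6.54% in CFPAC-1.

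Of the 12 listed desmosome genes, KLF5 knockout lowered 7 of 10 tested in BxPC-3 experiment 1, 6 of 10 in experiment 2, 6 of 9 in CFPAC-1, 4 of 10 in T3M-4 experiment 2, 2 of 10 in experiment 1, 3 of 9 in each AsPC-1 experiment and 1 of 7 in SUIT-2, and 2 rose in AsPC-1 experiment 1. DSG3, a desmosomal cadherin of stratified epithelia, fell by 1.14 in AsPC-1 experiment 3, by 0.80 in T3M-4 experiment 2 and by 0.62 in BxPC-3 experiment 2. RUVBL1 knockout lowered 8 of 9 in AsPC-1 experiment 2, 6 of 9 in experiment 3 and in CFPAC-1, 3 of 10 in T3M-4 (3 rose) and 2 of 10 in BxPC-3, to be read beside the shares of all genes given for the hemidesmosome list.

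Among 11 squamous transcription factors, RUVBL1 and RUVBL2 knockouts in T3M-4 each raised 8 and lowered 2 of 10 tested, with GRHL3, a regulator of the epidermal barrier, higher by 1.3 and 1.2 and SOX2 lower by 1.25 and 1.3, beside 45.9% and 39.3% of all genes that rose and 14.6% and 15.2% that fell. KLF5 knockout raised 4 of 10 there in experiment 2, with SOX2 higher by 1.23, and in BxPC-3 experiment 2 lowered 4 of 9 and raised 1, SOX2 by 2.04. Of all genes 23.4% rose in the former comparison, and 13.6% fell and 21.0% rose in the latter. TP63 did not pass in T3M-4 and fell by 0.52 in BxPC-3 experiment 2.

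Of the 5 simple epithelial keratins, the filament proteins of ductal and glandular cells, KLF5 knockout lowered 4 of 5 in T3M-4 experiment 2 and in CFPAC-1 and 3 of 4 in BxPC-3 experiment 2, and raised 1 of 5 in AsPC-1 experiment 3, KRT7 by 1.03. CB-6644 lowered 3 of 4 and raised 1 in AsPC-1 with the empty vector, KRT19 by 1.4 and KRT18 by 1.26, beside 17.2% of all genes lower and 47.2% higher. The KLF5 counts stand beside 11.2% (T3M-4), 13.0% (CFPAC-1) and 13.6% (BxPC-3) of all genes lower and 15.4% higher in AsPC-1 experiment 3. Counts of these simple keratins in the other KLF5 comparisons and in the RUVBL knockouts are not given here. CHD4 knockout, which lowered KRT15 and KRT16, raised KRT7 by 3.63 (SE 0.14, adjusted p = 3.59e-09), from a mean of 3.66 to one of 55.9 TPM, beside 23.3% of all genes that rose. Of the 6 other keratins of cornified epithelia, KRT80 rose after KLF5 knockout in T3M-4 experiment 2 (1.70), in both BxPC-3 experiments (1.88 and 1.17), in SUIT-2 (1.38) and in both AsPC-1 experiments (1.31 and 0.55), and differed by 1.25 in T3M-4 experiment 1 (adjusted p = 0.103). KRT80 was picked after its values were seen, and the other keratins of that list are not given here. Over the comparisons in which it rose, 2.94% (SUIT-2) to 23.4% (T3M-4 experiment 2) of all genes rose. In T3M-4 experiment 2 all 10 stratified keratins fell where KRT80 rose.

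Promoter sequence was at hand for KRT4 and KRT5, the members that fell most in T3M-4 experiment 2 among the type II genes, and not for the other 8, in the RefSeq table for GRCh38.p14. The bases shown lie just upstream of each gene on its own strand, and capitals mark the CACCC core bound by KLF and SP factors, which reads GGGTG where it lies on the other strand. KRT4 spans chr12:52814117-52814366 and KRT5 chr12:52520531-52520644, both on the minus strand.
KRT4: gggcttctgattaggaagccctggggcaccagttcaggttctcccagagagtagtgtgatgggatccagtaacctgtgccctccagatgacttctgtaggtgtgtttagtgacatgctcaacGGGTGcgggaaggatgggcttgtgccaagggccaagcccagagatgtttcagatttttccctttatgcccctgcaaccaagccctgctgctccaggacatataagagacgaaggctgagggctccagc
KRT5: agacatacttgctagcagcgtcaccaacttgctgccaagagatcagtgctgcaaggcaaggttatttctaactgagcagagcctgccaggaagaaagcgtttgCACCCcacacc
Each held 1 CACCC on either strand, as did 54.7% of 35116 promoters in the 250 bases upstream of the start. Neither held CCGCCC, the GC box (42.6% of promoters), TGANTCA, the AP-1 site (6.57%), or TATAAA (10.7%). A match describes letters and not a bound site, and the KRT5 stretch was shorter than the windows behind these shares.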

How the data were processed

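RNA was collected from 183 cell line libraries (TruSeq version 2 kit, poly-A selected, not stranded) and sequenced as single-end 76-base reads. The authors pseudo-aligned the reads with kallisto to hg38, per the submitters' processing notes and the study's methods, and deposited gene-level TPM in 8 tables. The annotation release behind the TPM was not given in the sources used here. TPM holds no read counts, so the count tests used in the study could not be run, the depth per library is unknown, and the number of libraries limits the precision. The authors left out 1 T3M-4 sgRUVBL1 library.

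The 10 keratins and all gene lists were chosen with earlier results of these data known. Groups came from the labels. Each table's log2(TPM + 1) was fitted with limma 3.58.1 (trend, R 4.3.3), with all groups of a line and experiment in one fit, keeping genes whose mean TPM over the fit reached 1, and p-values were adjusted by the Benjamini-Hochberg method over all genes in each of 67 comparisons, with a threshold of 0.05. The named genes were the members, with values for those called or at a control mean of 10 TPM or more, the targeted genes, up to 2 called genes of each list with the largest changes, and the 5 genes outside the keratin family most like KRT5 and KRT17 over 9 lines. TIMP3 and MGP, and values of VIM, TP63 and KRT80 that this rule does not name, were added after they were seen. Fits were tested on simulated data. Rescaling means division by median-of-ratios size factors computed from TPM. Other alternatives were a pseudocount of 0.1, a minimum mean of 5 TPM or none, fits of the compared groups alone, the replicate number as a block, each construct's own DMSO library, summed paralogs, and leaving out each library in turn. Coordinates, transcripts and coding sequences came from GENCODE 44 and promoters from RefSeq.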

Additional observations from a re-analysis of the deposited data

Results flagged for a closer look

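Single libraries stood apart within their group in 11 of 104 keratin and group pairs tested, where the gap to the nearest library was a large share of the group's range. Chance alone gives such a gap in about 1 in 20 groups, and the 11 came from 6 groups. AsPC-1 sgKLF5 experiment 1 replicate 6 was high in KRT5 (60.5 TPM), KRT6A (37.14), KRT14 (44.93) and KRT17 (59.66). T3M-4 sgKLF5 experiment 1 replicate 2 was low in KRT5 (30.11 TPM) and KRT6A (192.2) and high in KRT16 (23.44). The remaining cases were 1 gene each: KRT6A at 1881 TPM in BxPC-3 sgRUVBL1 replicate 3, KRT15 at 83.69 in T3M-4 sgRosa experiment 2 replicate 4, KRT16 at 7.585 in CFPAC-1 sgRosa replicate 2 and KRT17 at 8600 in BxPC-3 sgRosa experiment 2 replicate 2.

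The effect of KLF5 knockout differed between experiments in the same line, by limma's test of the difference (log2 fold change in experiment 1 minus that in experiment 2). In T3M-4 the differences were -3.97 for KRT4, -3.01 for KRT14, -1.93 for KRT6B, -1.93 for KRT16, -1.65 for KRT6A, -1.58 for KRT6C, -1.49 for KRT17 and 0.52 for KRT13. In BxPC-3 they were -3.47 for KRT6B, -2.59 for KRT6A, -2.29 for KRT14, -1.38 for KRT13, -0.92 for KRT17 and -0.74 for KRT5. For RUVBL1 knockout in AsPC-1, experiment 2 minus experiment 3 gave 0.64 for KRT15 and 0.76 for KRT17. Experiments of a line came as separate sets of libraries, and what else set them apart was not tested.

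KRT6B, KRT15 and KRT16 moved in opposite directions after KLF5 knockout in different lines or experiments, with all libraries of a group on one side of their controls, and the difference between lines was not tested. The log2 fold change of KRT6B was 1.55 in BxPC-3 experiment 2, -1.92 in BxPC-3 experiment 1, -2.61 in T3M-4 experiment 1 and -0.68 in T3M-4 experiment 2. That of KRT15 was 1.12 and 0.88 in AsPC-1 experiments 1 and 3, -0.89 in T3M-4 experiment 2 and -1.12 in CFPAC-1. That of KRT16 was 1.11 and 0.63 in AsPC-1, -3.07 and -1.13 in T3M-4 experiments 1 and 2 and -1.49 in BxPC-3 experiment 1.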

How the results depend on the processing

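Over 794 recomputed counts of called keratins under other settings, 720 stayed within 1.5 times the count as reported and 74 did not. Of 2609 recomputed fold changes 2413 kept direction and call, 78 lost the call, 62 gained it, 52 moved by more than the spread and 4 reversed. The cause of these changes was not tested, except that a higher minimum level tests fewer genes. The 4 reversals were KRT4 in T3M-4, at -0.71 with the empty vector against its own DMSO library and, relative to each construct's own DMSO library (chosen after seeing the data), at 0.24 for A62T and 0.015 for dF109 against the empty vector, and KRT6A for A62T against the empty vector in T3M-4, at -0.10 after rescaling.

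Counts below run from the value as reported to the value under the setting. Relative to each construct's own DMSO library, the T3M-4 comparison with the empty vector went from 2 to 0 lower for A62T, and from 2 to 0 lower and 3 to 1 higher for dF109. Against the construct's own DMSO library alone, the lower counts for CB-6644 went from 1 to 0 (A62T) and 1 to 2 (dF109) in AsPC-1 and from 5 to 8 (empty vector) and 6 to 1 (A62T) in T3M-4.

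With only the compared groups fitted, lower counts went from 4 to 1 for RPA3 in T3M-4 experiment 2, 3 to 1 for RUVBL2 in BxPC-3, 5 to 2 for KLF5 in CFPAC-1, 1 to 0 for CB-6644 with A62T in AsPC-1, and 6 to 2 (A62T) and 5 to 1 (dF109) in T3M-4. Higher counts went from 2 to 0 for CDK1 in T3M-4, 1 to 0 for RPA3 in CFPAC-1 and 1 to 0 for the KLF5 experiments of T3M-4. Against KLF5 in T3M-4, RUVBL1 and RUVBL2 went from 0 to 1 lower. Against the CDK1 and RPA3 mean, RUVBL1 went from 0 to 1 higher in BxPC-3 and from 1 to 4 lower and 0 to 1 higher in CFPAC-1, and RUVBL2 from 0 to 3 lower there.

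Rescaling shifted the median of all genes by over 0.1 in 36 of 67 comparisons, by -0.347 to 0.365, and moved the share of lower calls by over 10 points in 45. Lower counts went from 1 to 2 for KLF5 in SUIT-2, 3 to 1 for RUVBL2 and 2 to 1 for CDK1 in BxPC-3, 1 to 2 for CB-6644 with dF109 in AsPC-1 and 0 to 1 for RUVBL2 against KLF5 in T3M-4. Higher counts went from 2 to 1 for CDK1 in T3M-4, 0 to 2 for RUVBL2 and 2 to 1 for CDK1 in BxPC-3, 0 to 1 for RUVBL1 and 1 to 0 for RPA3 in CFPAC-1, and 3 to 1 for dF109 against the empty vector in T3M-4. Shares of lower calls over all genes went from 16.3% to 30.2% (AsPC-1) and 73.3% to 55% (T3M-4) for the KLF5 experiments, from 76.6% to 46.8% for the RUVBL1 experiments, and from 50% to 100% for SERPINB5. Against the CDK1 and RPA3 mean they went from 37.3% to 54% (RUVBL1) and 35.2% to 54.3% (RUVBL2) in AsPC-1, from 35.4% to 51.5% (RUVBL1) in T3M-4, and from 77.9%, 86% and 86.9% to 45.2%, 46.1% and 46.8% (KLF5, RUVBL1, RUVBL2) in CFPAC-1. Against KLF5 they went from 33.1% to 51% and 32.9% to 52.2% in AsPC-1, 33.4% to 53.5% and 40.2% to 53.2% in T3M-4 (RUVBL1, RUVBL2), 66% to 49.1% in BxPC-3 (RUVBL2) and 66.8% to 49.4% in CFPAC-1 (RUVBL1).

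With a minimum of 5 TPM, lower counts went from 1 to 0 for CDK1 in AsPC-1 and KLF5 in SUIT-2, 5 to 3 for KLF5 in CFPAC-1, and 5 to 2, 3 to 1 and 5 to 1 for CB-6644 in T84, A375 and H1048. They went from 1 to 0 for KLF5 in AsPC-1 and RUVBL1 in CFPAC-1 against the CDK1 and RPA3 mean and for RUVBL1 and RUVBL2 against KLF5 in BxPC-3. Higher counts went from 1 to 0 for RPA3 in AsPC-1 and CFPAC-1, KLF5 in BxPC-3 experiment 2, CHD4, CB-6644 in RH30 and KLF5 against the CDK1 and RPA3 mean in BxPC-3, from 2 to 1 for the RUVBL1 experiments and for RUVBL2 against that mean in BxPC-3, and from 5 to 3 for RUVBL1 and RUVBL2 against KLF5 in CFPAC-1. With no minimum, lower counts went from 0 to 1 for KLF5 in AsPC-1 experiment 3 and CB-6644 in RH30 and 2 to 1 for CDK1 in BxPC-3. In AsPC-1 they went from 1 to 3, 3 to 5 and 3 to 6 for KLF5, RUVBL1 and RUVBL2 against the CDK1 and RPA3 mean, and from 3 to 5 and 2 to 4 for RUVBL1 and RUVBL2 against KLF5. Higher counts went from 0 to 1 for RUVBL1 in AsPC-1 experiment 2 and CB-6644 in A375, 1 to 2 for CDK1 in AsPC-1 and CHD4, 1 to 0 for RPA3 in CFPAC-1, 2 to 1 for RUVBL2 against the CDK1 and RPA3 mean in BxPC-3 and 5 to 3 for RUVBL2 against KLF5 in CFPAC-1. With a pseudocount of 0.1, higher counts went from 1 to 0 for RPA3 in CFPAC-1 and 2 to 1 for RUVBL2 against the CDK1 and RPA3 mean in BxPC-3.

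The replicate numbers were not taken as pairs, since no comparison with 3 or more pairs had every correlation of same-numbered deviations over 0.1. That rule cannot exclude structure shared by replicate number. The correlations ran from 0.027 to 0.195 for KLF5 knockout in BxPC-3 experiment 2, and from -0.395 to 0.143 for it in SUIT-2. With the replicate block 348 of 368 keratin values kept their call, 6 lost it, 10 gained it and 4 moved. The block took RUVBL2 in BxPC-3 from 0 to 1 higher, CDK1 there from 2 to 1 lower, RUVBL2 against the CDK1 and RPA3 mean there from 2 to 1 higher and RUVBL1 against that mean in CFPAC-1 from 1 to 3 lower.

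Leaving out 1 library at a time kept 929 of 1000 counts within 1.5 times, and of 3327 fold changes 3080 kept direction and call, 163 lost the call, 40 gained it, 44 moved and 0 reversed. Where counts moved, lower counts ranged from 5 to 10 (9 as reported; 5 without either sgRosa library) for KLF5 in T3M-4 experiment 1, 3 to 6 (5) for KLF5 in CFPAC-1, 0 to 2 (1) for KLF5 in SUIT-2, 2 to 5 (4) for RUVBL1 in BxPC-3, 0 to 3 (0) for RUVBL1 in CFPAC-1, 0 to 1 (1) for CDK1 in AsPC-1, 0 to 2 (2) for CDK1 and 1 to 2 (2) for RPA3 in BxPC-3 experiment 2, and 0 to 1 (0) for RPA3 in CFPAC-1. For CB-6644 they ranged from 1 to 2 (1) with each variant in AsPC-1, and from 2 to 6 (6) with A62T and 2 to 7 (5) with dF109 in T3M-4. RUVBL2 ranged from 5 to 9 (9) against the CDK1 and RPA3 mean in T3M-4 and from 1 to 2 (1) against KLF5 in BxPC-3. Higher counts ranged from 0 to 1 (1) for CDK1 in AsPC-1 and RPA3 in CFPAC-1, 0 to 2 (2) for CDK1 in T3M-4, 1 to 3 (2) for CDK1 and RPA3 in BxPC-3, 0 to 1 (0) for RUVBL2 in BxPC-3 and RUVBL1 in CFPAC-1, 0 to 2 (0) for the empty vector in T3M-4, 0 to 2 (1) for the T3M-4 and 0 to 3 (2) for the AsPC-1 experiments, 1 to 2 (2) for RUVBL2 against the CDK1 and RPA3 mean in BxPC-3 and 2 to 3 (5) for RUVBL2 against KLF5 in CFPAC-1.

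Groups of 2 libraries, single DMSO libraries per construct, guides not named per replicate and reads shared among the KRT6 genes limit these values, and no depth can be given for a TPM table.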

Other observations

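Basal-like markers outside the keratin family did not move together in T3M-4 when RUVBL1 or RUVBL2 was knocked out. S100A2, a calcium-binding protein of basal keratinocytes, had a mean of 1456 TPM in sgRosa (SD 183, n = 4), 555 after RUVBL1 knockout (SD 38.3, n = 3) and 645 after RUVBL2 knockout (SD 84.3, n = 4), and fell by 1.38 (SE 0.13, adjusted p = 1.35e-07) and 1.17 (SE 0.12, adjusted p = 3.42e-07) by limma. FAM83A had means of 121, 228 and 204 TPM and rose by 0.94 (SE 0.17, adjusted p = 0.000146) and 0.79 (SE 0.16, adjusted p = 0.000434). No library of either knockout overlapped sgRosa for S100A2 or FAM83A, and the median of all genes was 0.25 and 0.19 higher in these comparisons. Of all genes 45.9% and 39.3% rose and 14.6% and 15.2% fell. Other listed markers of this kind are not given here.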
